A study of Mus musculus with 31 samples.

Results

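Collagen chain genes were followed across 20 mouse melanoma tumors and 11 cultures of the same cells, which differed in the glucocorticoid receptor (GR) and in treatment with the glucocorticoid (GC) clobetasol. The set was taken by name, as every gene whose symbol reads Col, a number, a and a number, which gave 44 of 39179 genes. By the class of collagen the chain builds, 11 were fibrillar, 10 belonged to the basement membrane and its zone, and 23 were minor collagens, including 6 chains of the type VI beaded filament family.

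Collagens are secreted proteins whose chains wind around one another into a stiff helix. Fibrillar chains assemble into the cable-like fibrils that give skin its strength and are made in skin chiefly by fibroblasts, while type IV chains join into the sheet under epithelia and around vessels, and minor chains decorate, link or anchor these structures. Topical GCs are known to thin the dermis, and tumor collagen can come both from cancer cells and from the host stroma around them.

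The cells were melanoma line 20967, from a C57BL/6 mouse with the alleles Tyr::CreERT2+/o and Nras+LSL-G12D, implanted intradermally in wild type C57BL/6 mice. GR KO cells came from colonies grown from single cells after Cas9 ribonucleoprotein editing of *Nr3c1*, so genotype and clone cannot be told apart. Mice with parental or GR KO implants were given a control cream, or clobetasol propionate ointment at 0.05% 3 times weekly, which gave 4 groups of 5 tumors. The *in vitro* groups were parental cells with DMSO (n = 3), parental cells with GC (n = 2), GR KO cells with DMSO (n = 3) and GR KO cells with GC (n = 3), with a dose of 10 µM in the labels and 1 µM in the library names. Host cells in every tumor kept an intact receptor, and tumors and cultures were separate experiments, so place of growth and experiment cannot be told apart.

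Each library held reads from the 3′ ends of transcripts, 15528066 to 26386770 counted reads per tumor and 14441166 to 22463188 per culture. Values are CPM, counts scaled to the effective size of each library, and are not divided by gene length because each transcript gives a tag near its end. A ratio between chains therefore also carries how well each 3′ end was captured. A gene was called when its adjusted p was below 0.05 and its change at least 1.5-fold. These p-values measure spread between samples, and in bulk RNA fewer cells of a type and less RNA per cell cannot be told apart. A count of 0 allows up to 3 counts, or 0.139 to 0.213 CPM in cultures and 0.108 to 0.216 CPM in tumors, for counting error alone.

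*Nr3c1*, the GR gene itself, measured 62.8, 57.6, 43.9, 55.9 and 50.5 CPM in control and 54.2, 23.5, 48.4, 36.4 and 49.6 CPM in GC-treated parental tumors, against 20.3, 26.7, 31.2, 33.6 and 23.4 CPM in control and 47.3, 21.4, 57.7, 31.7 and 46.9 CPM in GC-treated GR KO tumors. It measured 33.9, 30.6 and 36.3 CPM with DMSO and 40.6 and 34.2 CPM with GC in parental cells, against 25.8, 21.6 and 16.6 CPM with DMSO and 21.4, 22.4 and 12.9 CPM with GC in GR KO cells. The GR KO control tumors lay below every parental control tumor, and each GR KO culture lay below each parental culture. A tag at the 3′ end does not read the edited site, so these values do not check the edit. Of 7 melanocyte-lineage markers, *Sox10*, *Tyr*, *Dct* and *Mlana* were at 0 in all cultures, *Tyrp1* was at 0 except in GR KO cells with GC, and *Tyr* was at 0 in all tumors. *Mitf*, the lineage's master regulator, was the most abundant of them, at a mean of 10.3 CPM in parental cells with DMSO and 32.3 CPM in parental control tumors. Most of the defining markers of the labelled lineage were thus absent from the cultures.

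Several libraries stood apart before any comparison was made. The predicted gene *Gm26924* took 11.6, 8.97, 6.57, 0.248 and 16.3% of all counts in the GR KO control tumors, 5.55% in parental control tumor 1 and 6.65% in GR KO GC-treated tumor 4, and at most 2.89% in the other tumors. After an equal draw of 14441166 reads per library, the GR KO control tumors showed 13268, 14680, 14957, 16563 and 14141 genes, against 15020 to 16635 in the other tumors. Mitochondrial genes took 0.587 to 1.15% of counts in the GR KO control tumors, tumor 4 included, and 1.25 to 2.47% in the other tumors, so this measure set the whole group apart, and its part in the comparisons of this group was not tested. GR KO control tumor 4 was the library of its group closest to the other groups in all 3 measures. Leaving out the 6 tumors above 5%, an alternative chosen after seeing the data, left a single GR KO control tumor, which was then assumed to vary like the other groups. Values without these tumors are given for the edgeR calls between tumor groups. They are not given for the permutation tests, the correlations or most changes that were not called.

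Most of the tumor collagen RNA came from few chains. *Col3a1*, *Col1a1*, *Col1a2*, *Col5a1*, *Col6a3* and *Col6a2* together made 69.8% of collagen CPM in tumors. In culture the leading chains were *Col4a1*, *Col8a1*, *Col5a1* and *Col4a2*, with 67.7% of collagen CPM, of which *Col4a1* made 24.5%. Collagen counts were 0.683% to 1.97% of all counts in tumors and 0.236% to 0.353% in cultures, without overlap. Above 3 counts in every tumor were 23 of 44 chains, and 17 of these also exceeded 3 counts in every culture. *Col8a2*, *Col10a1* and *Col23a1*, minor chains, exceeded 3 counts in every tumor and in no culture. By group, all 11 fibrillar and all 10 basement membrane chains exceeded 3 counts somewhere in both tumors and cultures, against 10 of 23 minor chains. A further 10 minor chains did so in tumors alone, *Col22a1* in cultures alone, and *Col9a1* and *Col25a1* in neither. For this count 1 library was enough. *Col4a3*, *Col15a1*, *Col17a1* and *Col24a1* exceeded 3 counts in 1 of 11 cultures, and *Col2a1* and *Col4a3* in 1 of 20 tumors. At 0.5 CPM in 3 cultures, 7 of 11 fibrillar, 5 of 10 basement membrane and 7 of 23 minor chains passed. *Col2a1*, *Col4a3*, *Col8a2*, *Col9a1*, *Col15a1*, *Col17a1*, *Col22a1*, *Col23a1*, *Col24a1* and *Col25a1* were singled out after their values were seen.

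**Figure D1:**
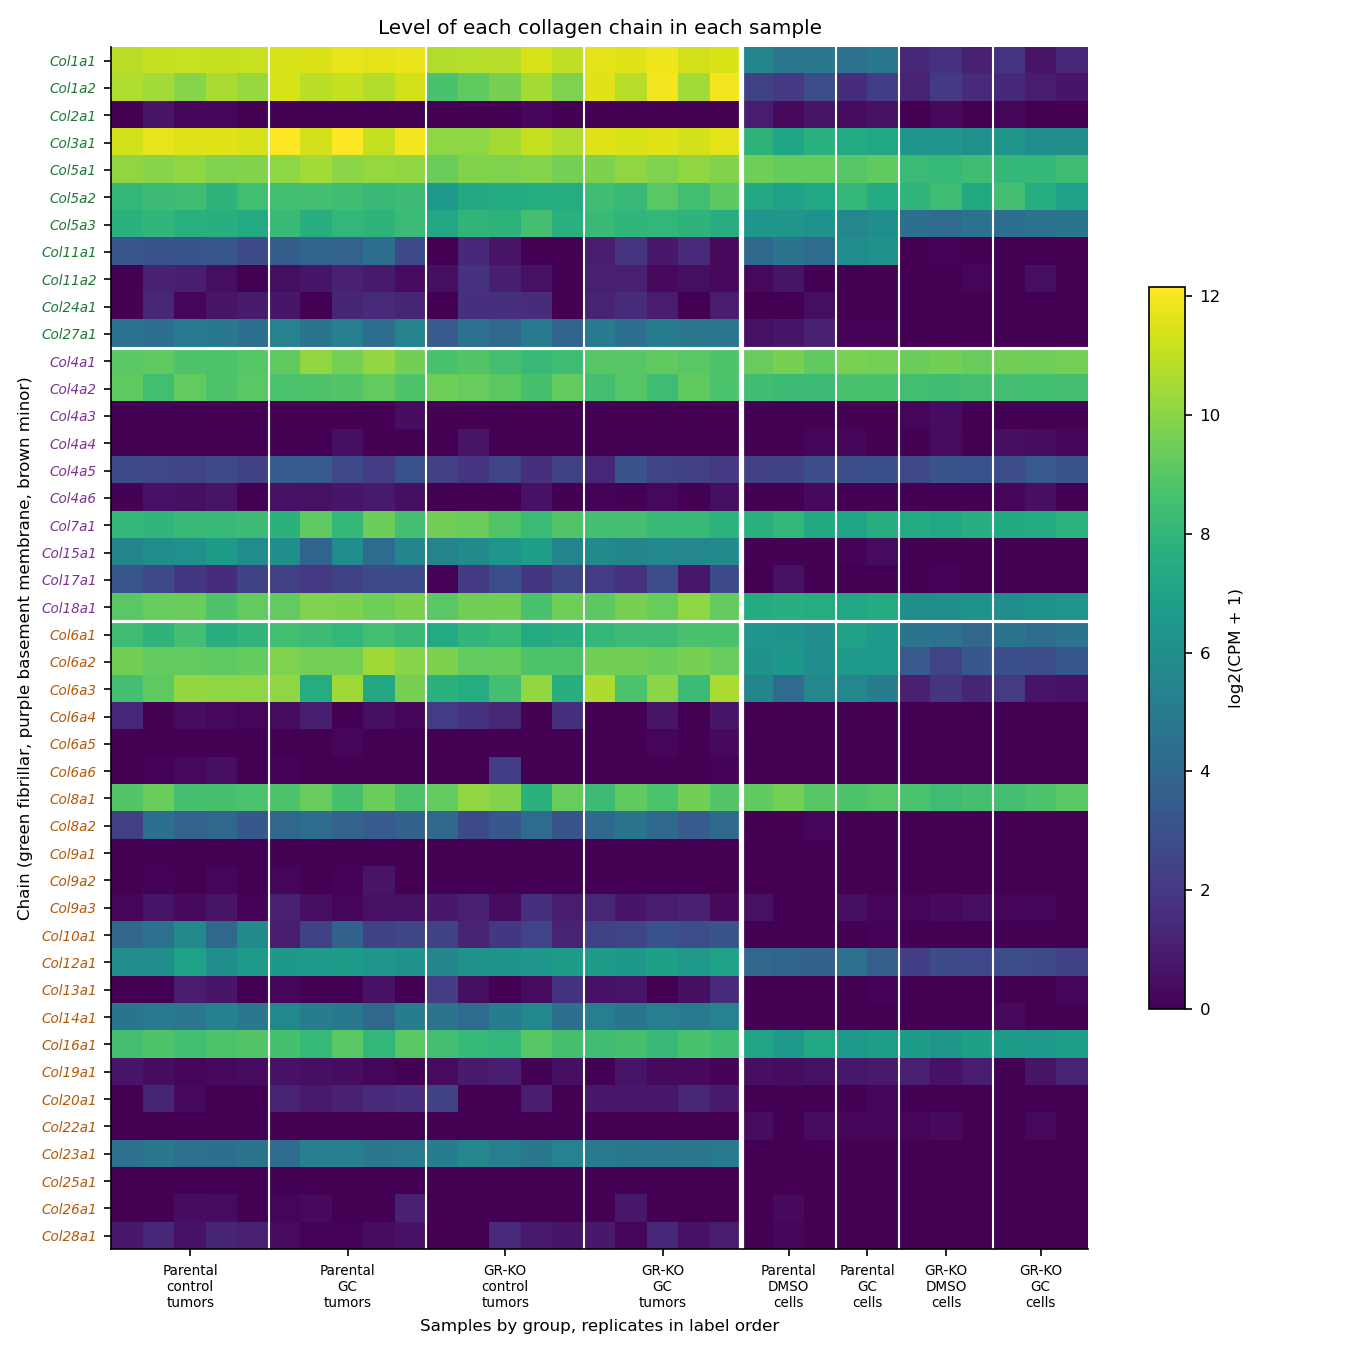
Heat map of log2(CPM + 1) for the 44 collagen chain genes, one line per gene grouped by class, with one column for each of the 20 tumors and 11 cultures. The fibrillar chain *Col1a2* is bright in the tumor columns and dark in the culture columns, whereas *Col4a1* and the fibrillar chain *Col5a1* are bright in both.

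The summed fibrillar CPM was 7754, 8442, 7898, 8168 and 7649 in parental control tumors and 11774, 9441, 11694, 8828 and 11816 in parental GC-treated tumors. It was 4158, 4825, 5366, 7832 and 5753 in GR KO control tumors and 10859.6, 9295, 12444, 8412 and 11671 in GR KO GC-treated tumors. Every GC-treated tumor lay above every control tumor of its genotype, and GR KO control tumor 4 alone in its group was within the range of the parental controls. Fibrillar chains averaged 62.8%, 65.1%, 54.1% and 66.8% of collagen CPM in these groups in the same order, and 32.7%, 31.4%, 26.6% and 23.8% in cultures (parental DMSO, parental GC, GR KO DMSO and GR KO GC). In culture the basement membrane class led, with 40.1% in parental and 52.6% in GR KO cells with DMSO. Basement membrane chains summed to 1921 ± 148 CPM (mean ± SD, n = 5) in parental control tumors, and 2608 ± 516, 2169.5 ± 400.2 and 2056 ± 322 CPM in the other tumor groups. Minor chains summed to 2820.0 ± 289.8, 3077 ± 433, 2465 ± 259.7 and 3113 ± 419 CPM in the 4 tumor groups. Sums are descriptions and were not tested.

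**Figure D2:**
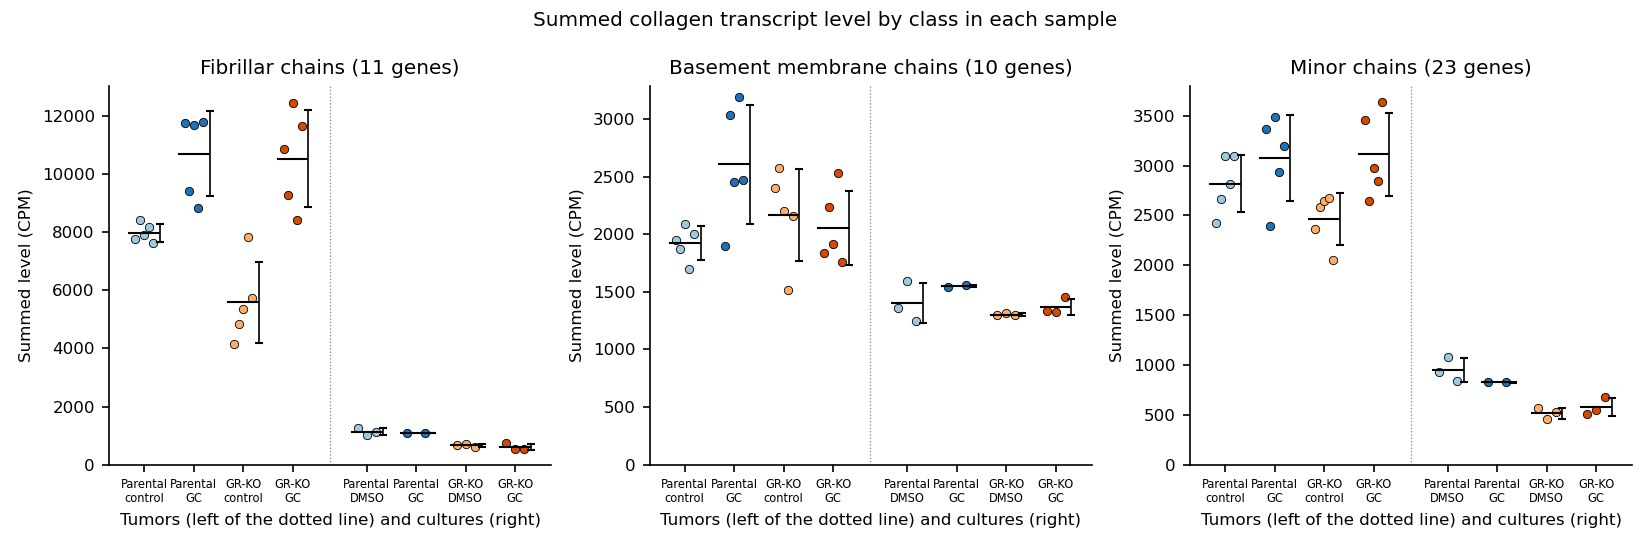
Summed CPM of fibrillar, basement membrane and minor collagen chains, a panel per class, with a dot for each tumor or culture, a line at the group mean and a bar of 1 SD, 5 tumors or 2 to 3 cultures per group. The fibrillar panel separates tumors from cultures more widely than the basement membrane panel does.

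Tumors against cultures ask which chains the cancer cells transcribe on their own and which appear in the tumor with its stroma. Chains of type I collagen were low in culture and abundant in tumors, whereas the 6 type IV chains together averaged 992 CPM in parental control tumors and 1002 CPM in parental cells with DMSO. *Col1a2* (ENSMUSG00000029661), a chain of type I collagen, measured 4.25, 3.20 and 6.41 CPM in parental and 1.35, 3.19 and 1.86 CPM in GR KO cells with DMSO. In control tumors it measured 1680.4, 1423, 983, 1552 and 1234 CPM for parental and 407, 577, 817, 1460.1 and 889.5 CPM for GR KO cells. The lowest tumor lay far above the highest culture in both genotypes. *Col1a1* (ENSMUSG00000001506), its partner in type I collagen, measured 46.9, 26.6 and 28.3 CPM in parental and 1.67, 2.35 and 1.15 CPM in GR KO cells with DMSO, against 1892 to 2269 CPM and 1733 to 2683 CPM in the control tumors. *Col6a3*, the long chain of type VI collagen, was at 17.8 to 49.0 CPM in parental and 1.19 to 2.70 CPM in GR KO cells with DMSO, and at 371 to 1172 and 182 to 1149 CPM in the tumors. In both genotypes these chains had cultures and tumors without overlap.

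Tested between parental control tumors and parental cells with DMSO, *Col1a2* rose by 8.21 ± 0.53 (adjusted p = 1.07e-13), *Col1a1* by 5.98 ± 0.34 (adjusted p = 7.05e-15) and *Col6a3* by 4.52 ± 0.83 (adjusted p = 3.84e-05), on the log2 scale with standard errors. In GR KO the same differences were 8.60 ± 0.54 (adjusted p = 3.23e-14), 10.18 ± 0.41 (adjusted p = 4.03e-18) and 7.90 ± 1.00 (adjusted p = 7.80e-08). They were 8.11, 6.00 and 4.70 in parental and 9.35, 10.53 and 9.28 in GR KO samples without the tumors above 5% *Gm26924*, with 21 and 24 chains called. Of 35 chains tested in parental samples, 22 were called, all higher in tumors, against 46.7% of all genes called, and their median log2 difference was 2.31 against 0.37 for all genes. By class these were 7 of 11 fibrillar, 4 of 8 basement membrane and 11 of 16 minor chains. In GR KO, 31 of 35 chains were called, 28 higher and 3 lower in tumors, against 54.8% of all genes, with medians of 4.28 and 0.33. These were 9 fibrillar chains higher and 1 lower of 11, 5 basement membrane chains higher and 2 lower of 8, and 14 minor chains higher of 16. A chain could enter these counts through tumors alone, since a gene needed 0.5 CPM in 3 samples of either kind.

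A few chains were at least as abundant in the cultured cells. *Col4a1* (ENSMUSG00000031502), the main chain of basement membrane networks, measured 635, 811 and 577 CPM in parental and 687, 749 and 645 CPM in GR KO cells with DMSO, against 529.9, 557, 442, 435 and 493 and 397, 471, 362, 292 and 336 CPM in control tumors. Each culture lay above each control tumor of its genotype, and *Col4a1* fell in GR KO tumors relative to cells by 0.90 ± 0.19 (adjusted p = 0.000133) on the log2 scale. In parental samples the difference was −0.46 ± 0.19 (adjusted p = 0.0435), below the 1.5-fold limit. *Col5a2*, a fibrillar chain that limits fibril width, measured 248, 330.0 and 163 CPM in GR KO cells and 90.5, 158, 177, 179.6 and 185 CPM in their tumors, overlapping ranges, and was called lower in tumors at −0.64 ± 0.27 (adjusted p = 0.0436). DESeq2 did not call it, nor did edgeR without GR KO control tumor 1 or 2 or GR KO culture 1 or 2 with DMSO, where 29, 26, 27 and 26 chains were called. *Col4a5*, a chain of a further type IV network, was called lower at −0.94 ± 0.39 (adjusted p = 0.0403), with 2.08 to 4.61 CPM in tumors and 5.23 to 7.65 CPM in cells. Without GR KO control tumor 2 or 4, or GR KO culture 2 or 3 with DMSO, *Col4a5* was at −0.88 to −0.82 with adjusted p of 0.0785 to 0.115 and was not called, nor was it by DESeq2 (−0.85, adjusted p = 0.0557), with DESeq2 size factors or without a filter (−0.97, adjusted p = 0.0602). Without the tumors above 5% *Gm26924*, *Col4a1* at −1.31 (adjusted p = 0.00252) and *Col4a5* at −1.74 (adjusted p = 0.0393) were called and *Col5a2* was not. *Col8a1*, of the short-chain network class, measured 507 to 785 CPM in parental cells and 374 to 652 CPM in parental control tumors, a difference of −0.44 ± 0.31 (adjusted p = 0.252) that was not called. *Col11a1* at −1.37 ± 0.66 (adjusted p = 0.0892) in parental and *Col19a1* at −0.69 ± 1.06 (adjusted p = 0.594) in GR KO samples, a minor fibrillar and a minor associated chain, were not called either, although *Col11a1* was called at −1.43 (adjusted p = 0.0108) without the tumors above 5% *Gm26924*.

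Where a chain had no read in any culture of a group, its fold is a lower bound computed at 3 counts per library. *Col23a1*, a transmembrane chain, was at least 126-fold higher in parental and 236-fold higher in GR KO control tumors than in cells with DMSO. *Col10a1*, the collagen of hypertrophic cartilage, was at least 169-fold higher in parental and 17.7-fold higher in GR KO tumors. *Col15a1*, a basement membrane zone chain, held 1 count in each parental culture with DMSO and 0 in each GR KO one, and its GR KO control tumors were at least 423-fold higher. *Col14a1*, a fibril-associated chain, held at most 1 count in a parental culture and 0 in the GR KO cultures with DMSO, and its GR KO control tumors were at least 188-fold higher. *Col15a1*, *Col14a1* and *Col23a1* were chosen here after their values were seen.

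**Figure D3:**
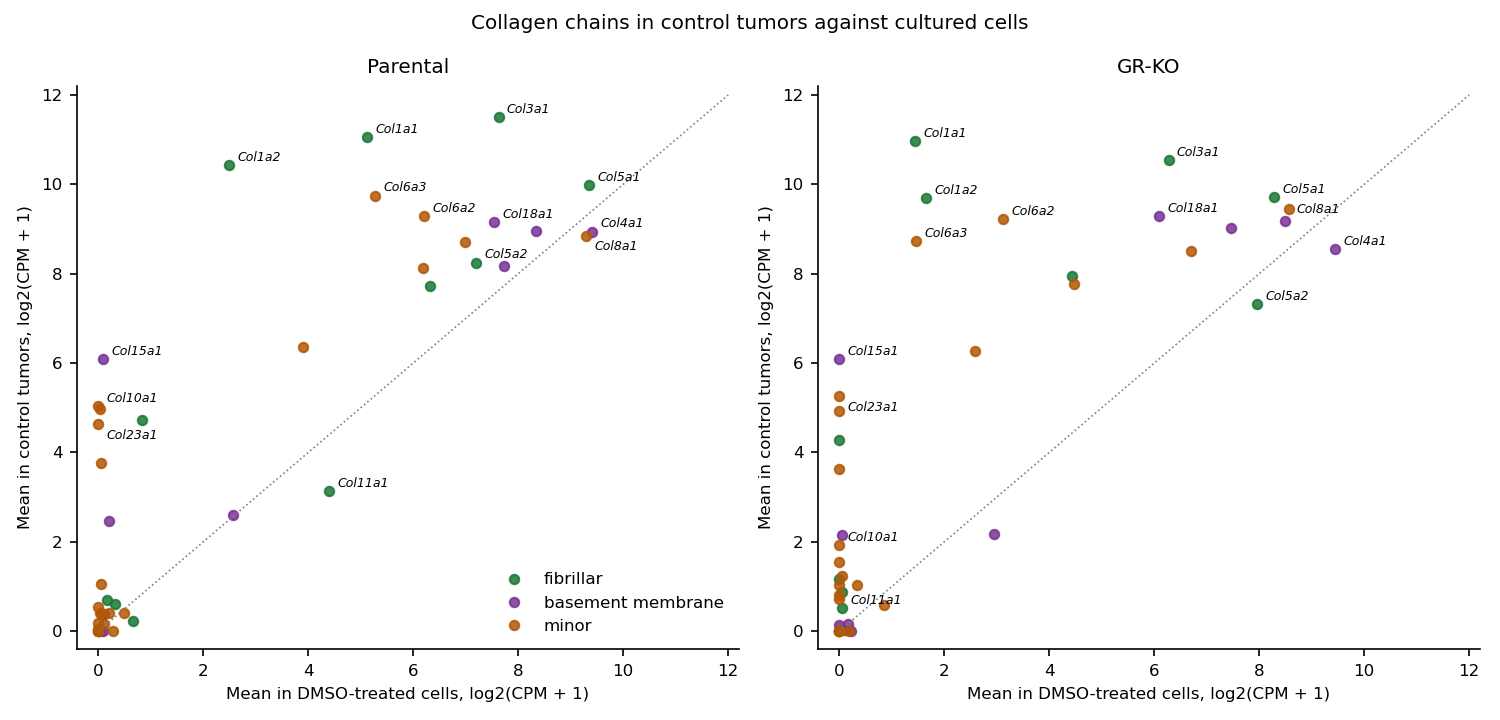
Mean log2(CPM + 1) of each collagen chain in cells with DMSO (horizontal axis, n = 3) and in control tumors (vertical axis, n = 5), parental in one panel and GR KO in the other, with dots colored by class and a dotted line of equal level. *Col1a1*, *Col1a2* and *Col6a3* lie far above the line, and *Col4a1* lies under it.

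Marker lists for cells that a tumor could hold were counted beside these differences, and their part in them was not tested. Of 8 fibroblast markers, all were called higher in control tumors than in cells in both genotypes, and *Dcn*, a collagen-binding proteoglycan, was the most abundant at a mean of 334 CPM in parental control tumors. Their summed CPM had medians of 782, 938, 705 and 661 in parental control, parental GC-treated, GR KO control and GR KO GC-treated tumors. In culture the sums were 0.437 to 3.79 CPM, with *Dpt* and *Pi16* at 0 in parental and *Dcn*, *Lum*, *Dpt*, *Pi16* and *Fap* at 0 in GR KO cells with DMSO. Endothelial markers, led by *Kdr*, had medians of 66.2, 42.3, 109.8 and 58.0 CPM in the same order, and 1.06 to 4.96 CPM in cultures with *Tek* and *Cldn5* at 0. Keratinocyte markers, led by *Krt14*, had medians of 932, 1143, 2906 and 1344 CPM and 0.660 to 5.83 CPM in cultures with *Krt1* at 0. Leukocyte markers, led by *Csf1r*, had medians of 466, 657, 560.1 and 529.9 CPM and at most 4.07 CPM in cultures with *Cd3e* at 0. Skeletal muscle markers, led by *Acta1*, had medians of 374, 386, 451 and 285 CPM, with *Ckm* and *Myh4* at 0 in every culture. Adipocyte markers, led by *Adipoq*, had medians of 25.2, 30.99, 13.7 and 17.8 CPM, with *Plin1*, *Cidec* and *Lep* at 0 in cultures. Of 7 pericyte and smooth muscle markers 5 were called higher and 2, *Acta2* and *Cspg4*, lower in control tumors than in cells in both genotypes. *Acta2* dominated their sum, which was 2561 to 5548 CPM in cultures with medians of 651, 664, 1079 and 1036 CPM in tumors, while *Abcc9* and *Myh11* were at 0 in cultures. The melanoma cells in culture thus held smooth muscle actin RNA without 2 other markers of that list.

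GC treatment of mice with GR KO tumors asks how the treated host affects a tumor whose cancer cells carry the edited receptor gene. Fibrillar collagen RNA was higher with GC in these tumors, through both chains of type I collagen, the type III chain and a type V chain, together with a type VI chain. *Col3a1* (ENSMUSG00000026043), the chain of type III collagen in extensible tissue, measured 1085, 1096, 1437, 2160.2 and 1645 CPM in control and 2966, 2786, 3095, 2665 and 3257 CPM in GC-treated tumors. *Col5a2* (ENSMUSG00000026042) measured 90.5, 158, 177, 179.6 and 185 CPM in control and 343, 297, 517, 352 and 538 CPM in GC-treated tumors. Neither chain's groups overlapped, and GR KO control tumor 4 was the highest control for *Col3a1*. *Col1a2* measured 407, 577, 817, 1460.1 and 889.5 CPM in control and 3150.2, 1835, 3957, 1420.4 and 3899.6 CPM in GC-treated tumors. *Col1a1* measured 1733, 1799, 1807, 2683 and 2039.8 CPM in control and 3206, 2964, 3672, 2608 and 2846 CPM in GC-treated tumors. *Col6a1* (ENSMUSG00000001119), a short chain of type VI collagen, measured 172, 253, 296, 169 and 197 CPM in control and 267, 319.8, 322, 399 and 405 CPM in GC-treated tumors. In these 3 chains the highest control tumor passed the lowest GC-treated tumor, which for type I collagen was control tumor 4 against GC-treated tumor 4.

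By edgeR, *Col1a2* rose by 1.83 ± 0.30 (adjusted p = 0.00191), *Col5a2* by 1.41 ± 0.21 (adjusted p = 0.000885), *Col3a1* by 1.03 ± 0.22 (adjusted p = 0.00798), *Col6a1* by 0.69 ± 0.21 (adjusted p = 0.0467) and *Col1a1* by 0.64 ± 0.17 (adjusted p = 0.0258), on the log2 scale with n = 5 and 5. These 5 were called of 34 chains tested, against 6.42% of all genes, and the median log2 change was 0.24 for chains and 0.05 for all genes. They were 4 of 10 fibrillar and 1 of 16 minor chains, while 0 of 8 basement membrane chains was called by edgeR or DESeq2, with 2 at an unadjusted p under 0.05. *Col6a1* was not called without GR KO control tumor 1, 2, 4 or 5 or GC-treated tumor 2, 3, 4 or 5 (0.60 to 0.75, adjusted p 0.0523 to 0.125), nor *Col1a1* without control tumor 1, 2 or 3 or GC-treated tumor 1, 3 or 5 (0.58 to 0.65, adjusted p 0.0507 to 0.0849). The replicate block, DESeq2 size factors and no filter also ended the call of *Col6a1* (0.66 to 0.71, adjusted p 0.0552 to 0.0565), and no filter that of *Col1a1* (0.64, adjusted p = 0.0686). Without GR KO control tumor 1 or GC-treated tumor 3 or 5 the number of chains called was 3. Without the 6 tumors above 5% *Gm26924* no chain was called, and the changes were 1.24 for *Col1a2*, 1.34 for *Col5a2*, 0.59 for *Col3a1*, 1.06 for *Col6a1* and 0.34 for *Col1a1*, with adjusted p of 0.216 to 0.838. With the number of genes detected as a covariate, also chosen after seeing the data, *Col5a2* at 1.22 (adjusted p = 0.00861) and *Col1a2* at 1.24 (adjusted p = 0.0150) were called and *Col3a1* at 0.72 (adjusted p = 0.0681), *Col6a1* at 0.82 (adjusted p = 0.0701) and *Col1a1* at 0.49 (adjusted p = 0.150) were not.

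**Figure D4:**
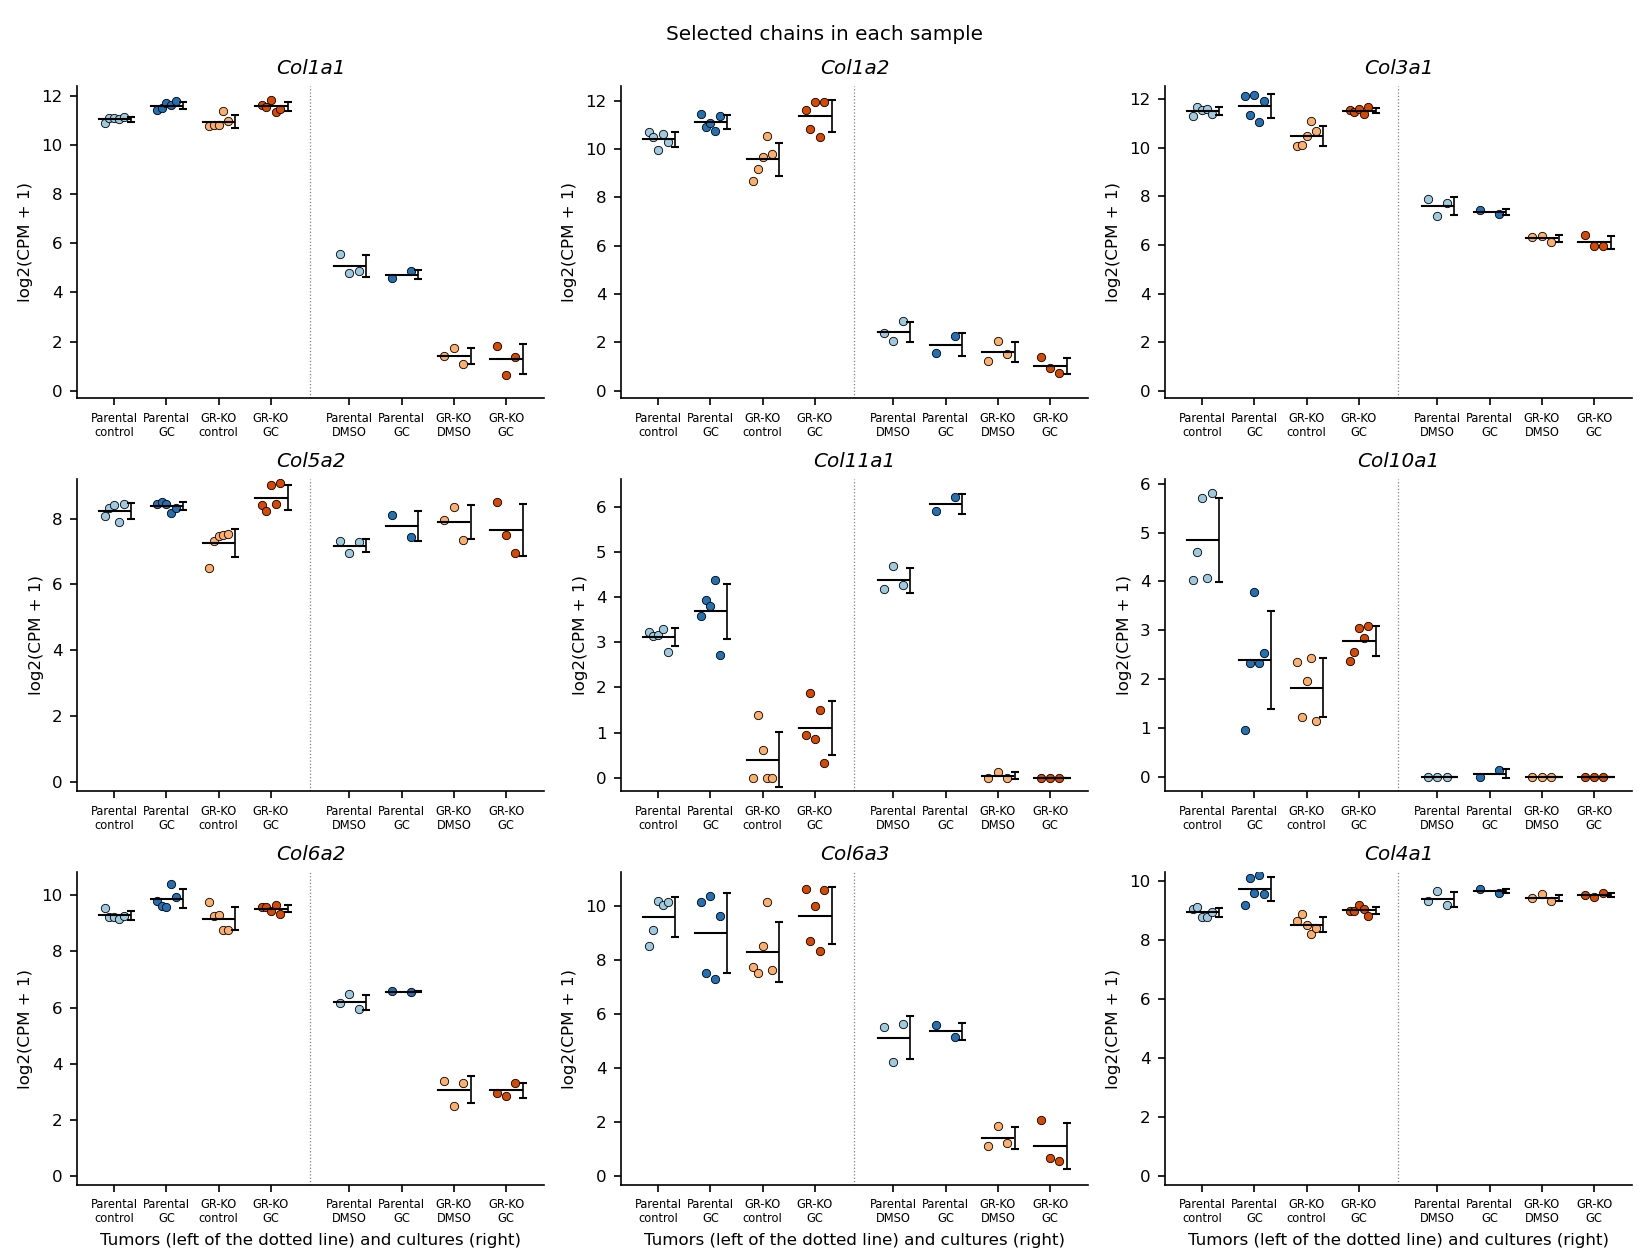
log2(CPM + 1) of 9 collagen chains, a panel each, with a dot for each tumor and culture, a line at the group mean and a bar of 1 SD, 5 tumors or 2 to 3 cultures per group. *Col10a1* is high in parental control tumors, and *Col11a1* is near 0 in GR KO cultures and lower in each GR KO tumor than in each parental tumor.

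GC treatment of mice with parental tumors asks how treatment affects a tumor in which cancer cells and host both carry an unedited receptor gene. Here *Col10a1* fell and *Col4a1* rose by the test. *Col10a1* (ENSMUSG00000039462) measured 15.3, 23.1, 50.9, 15.9 and 54.7 CPM in control and 0.933, 4.03, 12.8, 4.04 and 4.77 CPM in GC-treated tumors. *Col4a1* measured 529.9, 557, 442, 435 and 493 CPM in control and 581, 1110.5, 780.4, 1173 and 758 CPM in GC-treated tumors. Each GC-treated tumor lay below each control tumor for *Col10a1* and above each control tumor for *Col4a1*, whose GC-treated tumors 2 and 4 were highest. *Col4a2*, which joins *Col4a1* in the same network molecule, measured 558, 356, 608, 429.7 and 525 CPM in control and 413, 450.1, 474, 600.4 and 442 CPM in GC-treated tumors, overlapping ranges.

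*Col10a1* fell by 2.60 ± 0.52 (adjusted p = 0.0127) and *Col4a1* rose by 0.85 ± 0.20 (adjusted p = 0.0394) on the log2 scale, while *Col4a2* was at −0.06 ± 0.21 (adjusted p = 0.932). These 2 were called of 34 chains, against 0.779% of all genes, with median changes of 0.24 for chains and 0.00 for all genes. Of the chains tested, 25 had positive and 9 negative values. Of 10 fibrillar chains tested, with a median of 0.34, 2 had an unadjusted p under 0.05, and 0 was called by edgeR or DESeq2. *Col1a2* measured 1680.4, 1423, 983, 1552 and 1234 CPM in control and 2752, 1918, 2148, 1733 and 2636 CPM in GC-treated tumors, and *Col1a1* 1892, 2172, 2217, 2134 and 2269 CPM in control and 2748, 2890.0, 3320.2, 3198 and 3514 CPM in GC-treated tumors, both without overlap, at 0.70 ± 0.29 (adjusted p = 0.282) and 0.55 ± 0.17 (adjusted p = 0.134). *Col10a1* was not called without parental control tumor 3 or 5 (−2.36 to −2.30, adjusted p 0.0542 to 0.0583), nor *Col4a1* without control tumor 1, 3, 4 or 5 or GC-treated tumor 2 or 4 (0.72 to 0.88, adjusted p 0.0607 to 0.138), and the number of chains called was then 0 without control tumor 3 or 5 and 1 without any 1 of the other 4. Without the 6 tumors above 5% *Gm26924*, *Col4a1* was at 0.88 (adjusted p = 0.0596) and *Col10a1* at −2.76 (adjusted p = 0.0152). Read counting was described without a strand setting and with defaults where nothing was specified, which for featureCounts ignores strand, so reads of *Col10a1* and of *Nt5dc1*, which lies across the end of *Col10a1* on the opposite strand, cannot be told apart, nor can those of *Col4a1* and *Gm15418*. *Nt5dc1* measured 4.29 to 9.05 CPM in parental control tumors and 1.44 to 7.50 CPM with GC, and 2.32 to 5.66 CPM in cultures, 10 of 11 of which held no *Col10a1* read.

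The interaction of genotype and treatment in tumors passed the test for *Col10a1*. This chain measured 4.11, 1.34, 2.91, 4.37 and 1.22 CPM in GR KO control and 4.14, 4.90, 7.28, 6.20 and 7.50 CPM in GR KO GC-treated tumors, where the ranges overlapped. The parental minus GR KO difference of the GC effect was −3.75 ± 0.72 (adjusted p = 0.0330) on the log2 scale, the sole chain called of 34 against 0.195% of all genes, with medians of −0.06 for chains and −0.04 for all genes. *Col5a2* was at −1.27 ± 0.29 (adjusted p = 0.0631), *Col1a2* at −1.13 ± 0.42 (adjusted p = 0.147) and *Col3a1* at −0.77 ± 0.30 (adjusted p = 0.172), so a genotype difference in their GC effect was not shown. With tumors matched by replicate number as a block, *Col10a1* and *Col5a2* were called, and DESeq2 called *Col5a2*, *Col10a1* and *Col7a1*. *Col10a1* was not called without parental control tumor 3 or 5, parental GC-treated tumor 2, 4 or 5, GR KO control tumor 1 or 2, or GR KO GC-treated tumor 1, 3 or 5 (−3.93 to −3.45, adjusted p 0.0514 to 0.0882). The count was 4 without GR KO control tumor 4, 2 without GR KO GC-treated tumor 2, and 0 without the tumors above 5% *Gm26924* or with genes detected as a covariate, where *Col10a1* was at −3.31 (adjusted p = 0.697) and −3.70 (adjusted p = 0.0524).

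GR KO against parental control tumors asks which chains differ between tumors of the edited clone and parental tumors under control cream. Here 4 collagen chains were lower in GR KO tumors, 3 of them fibrillar. *Col11a1* (ENSMUSG00000027966), a minor fibrillar chain that nucleates fibrils in cartilage, measured 8.33, 7.79, 7.95, 8.76 and 5.91 CPM in parental and 0, 1.63, 0.542, 0 and 0 CPM in GR KO control tumors. *Col3a1* measured 2534, 3272, 2979, 3104 and 2689.6 CPM in parental and 1085, 1096, 1437, 2160.2 and 1645 CPM in GR KO tumors. *Col5a2* measured 273, 320.1, 338, 237 and 349 CPM in parental and 90.5, 158, 177, 179.6 and 185 CPM in GR KO tumors. For these chains and for *Col10a1* the GR KO and parental ranges were separate, although GR KO control tumor 4 was nearest to the parental range for *Col3a1*.

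*Col11a1* fell by 4.14 ± 0.84 (adjusted p = 0.0191), *Col10a1* by 3.55 ± 0.54 (adjusted p = 0.00212), *Col3a1* by 1.00 ± 0.22 (adjusted p = 0.0252) and *Col5a2* by 0.96 ± 0.21 (adjusted p = 0.0252) on the log2 scale. They were 4 called of 34 chains, against 2.25% of all genes, with medians of −0.10 for chains and −0.04 for all genes, and made 3 of 10 fibrillar and 1 of 16 minor chains. Of 8 basement membrane chains 0 was called by edgeR, 2 had an unadjusted p under 0.05, and DESeq2 called 1. *Col3a1* was not called without parental control tumor 2, 3 or 4 or GR KO control tumor 1 or 2 (−0.98 to −0.91, adjusted p 0.0560 to 0.0701), nor *Col5a2* without parental control tumor 2 or 3 or GR KO control tumor 1 or 2 (−0.97 to −0.82, adjusted p 0.0503 to 0.0611), which left 2 chains called without parental control tumor 2 or 3 or GR KO control tumor 1 or 2. Without GR KO control tumor 4 there were 9, namely *Col3a1*, *Col5a2*, *Col6a3*, *Col11a1*, *Col1a2*, *Col10a1*, *Col7a1*, *Col23a1* and *Col8a1*, of which the last 3 were higher and the others lower in GR KO tumors. Without the tumors above 5% *Gm26924* there was 0, with *Col3a1* at −0.56, *Col5a2* at −0.88 and *Col10a1* at −3.14 (adjusted p 0.617 to 0.989), and *Col11a1*, with no read in the GR KO control tumor left, had an adjusted p of 0.0960. With genes detected as a covariate *Col3a1* at −0.65 (adjusted p = 0.202) and *Col5a2* at −0.77 (adjusted p = 0.186) were not called, while *Col11a1* at −4.93 (adjusted p = 0.0264) and *Col10a1* at −3.49 (adjusted p = 0.0182) were.

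Under GC, GR KO tumors differed from parental ones in a single chain by the test. *Col11a1* measured 10.99, 14.3, 13.0, 19.8 and 5.62 CPM in parental and 0.925, 2.66, 0.804, 1.81 and 0.259 CPM in GR KO GC-treated tumors, without overlap. It fell by 3.30 ± 0.78 (adjusted p = 0.0483) on the log2 scale, 1 of 34 chains against 0.634% of all genes, with medians of −0.07 and 0.01. Leaving out any 1 of the 10 tumors ended the call of *Col11a1*, at −3.74 to −3.04 with adjusted p of 0.0508 to 0.135. The 4 type IV chains tested had a median of −0.77 with 0 called, and *Col4a1* measured 512, 513, 577, 528 and 446 CPM in GR KO against 581, 1110.5, 780.4, 1173 and 758 CPM in parental GC-treated tumors, without overlap, at −0.76 ± 0.20 (adjusted p = 0.0758). DESeq2 and the covariate of genes detected each called *Col4a1* besides *Col11a1*, and without parental GC-treated tumor 1 *Col4a1* was the 1 chain called. *Col11a1* was at −3.46 (adjusted p = 0.00459) without the tumors above 5% *Gm26924*. The tumor comparisons share groups with one another, so their values stand side by side and are not independent.

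In exact permutation tests of log2(CPM + 1), 2-sided and 5 tumors against 5, the smallest p is 0.00794 and marks groups that do not overlap. Of 19 named chains this was reached by *Col1a2*, *Col10a1*, *Col6a2*, *Col4a1* and *Col1a1* for GC in parental tumors, where 4.17% of all genes had groups without overlap and 0.779% were called by edgeR. For GC in GR KO tumors, with 5.13% and 6.42% of all genes, it was reached by *Col3a1* and *Col5a2*. Between GR KO and parental control tumors, with 4.06% and 2.25%, it was reached by *Col3a1*, *Col5a2*, *Col11a1* and *Col10a1*, and between GC-treated tumors, with 3.89% and 0.634%, by *Col11a1* and *Col4a1*. Chains called in a comparison were named for that call, so their p-values restate it. *Col1a2*, *Col6a2* and *Col1a1* in parental tumors and *Col4a1* between GC-treated tumors were named on other grounds. These 76 p-values were not adjusted.

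Type VI chains, which form beaded filaments around cells, were uneven among tumors. *Col6a3* (ENSMUSG00000048126) measured 371, 559, 1172, 1066 and 1132 CPM in parental control and 1134, 184, 1349, 158 and 807 CPM in parental GC-treated tumors. It measured 213, 182, 365, 1149 and 197 CPM in GR KO control and 1584, 417, 1034, 325 and 1559 CPM in GR KO GC-treated tumors. High and low tumors occurred in each group, with GR KO control tumor 4 alone high in its group, and no tumor comparison called it. *Col6a2* (ENSMUSG00000020241) measured 740.0, 601, 599, 562 and 616 CPM in control and 883, 786, 767, 1361 and 988 CPM in GC-treated parental tumors, against 871, 607, 626, 434 and 432 CPM in control and 759, 762, 692, 798 and 640.4 CPM in GC-treated GR KO tumors. Every parental GC-treated tumor lay above every parental control, while the GR KO groups overlapped, and it was at 0.62 ± 0.21 (adjusted p = 0.178) for GC in parental and 0.32 ± 0.21 (adjusted p = 0.348) in GR KO tumors. The ratio of *Col6a2* to *Col6a1* ran from 1.58 to 5.06 in tumors, 0.885 to 1.15 in parental cells with DMSO and 0.204 to 0.580 in GR KO cells with DMSO.

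Chains that pair in one molecule did not keep one ratio. The ratio of *Col1a1* to *Col1a2* CPM was 1.84 to 4.26 in GR KO control and 0.730 to 1.84 in GR KO GC-treated tumors, and 1.13 to 2.26 and 0.999 to 1.85 in the parental pair. In cells with DMSO it was 4.41 to 11.03 for parental and 0.618 to 1.24 for GR KO. The ratio of *Col4a1* to *Col4a2* was 0.728 to 1.56 in parental control, 1.41 to 2.47 in parental GC-treated, 0.558 to 0.739 in GR KO control and 0.922 to 1.73 in GR KO GC-treated tumors, against 1.71 to 2.57 in cultures. The ratio of *Col5a1* to *Col5a2* was 4.18 to 7.45 in GR KO control and 1.70 to 3.82 in GR KO GC-treated tumors. In parental tumors it was 2.59 to 4.14 in control and 3.00 to 4.08 with GC, overlapping ranges. Ratios were not tested.

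GR KO against parental cells with DMSO asks which chains differ in the cancer cells themselves. Most of the chains that these cells expressed were lower in GR KO cells, fibrillar and type VI chains foremost, while type IV chains did not pass the test. *Col11a1* measured 17.0, 24.8 and 18.1 CPM in parental and 0, 0.0981 and 0 CPM in GR KO cells. *Col6a2* measured 71.0, 87.5 and 60.0 CPM in parental and 9.44, 4.71 and 8.91 CPM in GR KO cells. *Col1a1* measured 46.9, 26.6 and 28.3 CPM in parental and 1.67, 2.35 and 1.15 CPM in GR KO cells. In all 3 chains the groups lay far apart. *Col6a1* measured 80.2, 75.9 and 60.8 CPM in parental and 24.9, 23.1 and 15.4 CPM in GR KO cells. *Col5a3*, a type V chain of restricted distribution, measured 82.8, 83.1 and 71.7 CPM in parental and 20.9, 18.0 and 23.3 CPM in GR KO cells. *Col5a1*, the main type V chain, which starts fibril assembly, measured 712, 623 and 616 CPM in parental and 310.2, 283 and 339 CPM in GR KO cells. These groups did not overlap either. *Col3a1* measured 234, 143 and 212 CPM in parental and 79.3, 81.4 and 68.4 CPM in GR KO cells. *Col18a1*, the vascular basement membrane chain that carries endostatin, measured 175, 197 and 183 CPM in parental and 65.6, 64.3 and 72.8 CPM in GR KO cells. *Col12a1*, a fibril-associated chain, was at 13.9 ± 1.07 CPM in parental and 5.03 ± 1.21 CPM in GR KO cells (mean ± SD, n = 3). Parental cultures were again the higher ones throughout. *Col6a3* measured 45.6, 17.8 and 49.0 CPM in parental and 1.19, 2.70 and 1.37 CPM in GR KO cells. *Col8a1* measured 585, 785 and 507 CPM in parental and 423, 333 and 373 CPM in GR KO cells. Both kept the genotypes apart, *Col6a3* more widely than *Col8a1*.

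*Col11a1*, with reads in 1 of 3 GR KO cultures, was called lower by edgeR (adjusted p = 1.06e-05). *Col6a3* fell by 4.42 ± 0.63 (adjusted p = 0.00126), *Col1a1* by 4.30 ± 0.45 (adjusted p = 0.000179) and *Col6a2* by 3.26 ± 0.27 (adjusted p = 3.03e-05) on the log2 scale. *Col5a3* fell by 1.94 ± 0.17 (adjusted p = 3.79e-05), *Col6a1* by 1.79 ± 0.21 (adjusted p = 0.000310), *Col12a1* by 1.47 ± 0.29 (adjusted p = 0.00798), *Col18a1* by 1.46 ± 0.14 (adjusted p = 7.63e-05), *Col3a1* by 1.37 ± 0.19 (adjusted p = 0.000934), *Col5a1* by 1.08 ± 0.14 (adjusted p = 0.000567) and *Col8a1* by 0.74 ± 0.19 (adjusted p = 0.0318). All 11 called were lower, of 19 chains tested, against 8.22% of all genes, of which 757 were lower and 273 higher. The median log2 difference was −1.12 for chains and 0.01 for all genes. They were 5 of 7 fibrillar, 5 of 7 minor and 1 of 5 basement membrane chains, and 0 of 3 type IV chains was called by edgeR or DESeq2, with 0 at an unadjusted p under 0.05 and a median of 0.14. *Col4a2* measured 338, 315 and 315 CPM in parental and 358, 338 and 377 CPM in GR KO cells, and *Col5a2* 158, 122 and 156 CPM in parental and 248, 330.0 and 163 CPM in GR KO cells, at 0.14 ± 0.10 (adjusted p = 0.429) and 0.75 ± 0.35 (adjusted p = 0.219). *Col8a1* was not called without parental culture 1 or 2 or any 1 of the GR KO cultures (−0.83 to −0.54, adjusted p 0.0634 to 0.137), nor with replicate number as a block (−0.73, adjusted p = 0.0616). Reads of *Col18a1* and of *Slc19a1*, which crosses its end on the other strand, cannot be told apart.

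GC on parental cells in culture changed 1 collagen chain, *Col11a1*, which rose. It measured 17.0, 24.8 and 18.1 CPM with DMSO and 58.6 and 73.3 CPM with GC, without overlap. The change was 1.71 ± 0.30 (adjusted p = 0.0323) on the log2 scale, 1 of 19 chains against 0.878% of all genes, with medians of 0.13 for chains and −0.00 for all genes. The call was lost without parental DMSO culture 1 or 3 or either GC culture (1.54 to 1.87, adjusted p 0.165 to 0.367), and with replicate number as a block it was 1.64 (adjusted p = 0.106). Leaving out a GC culture leaves 1, which was assumed to vary like the other groups.

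In GR KO cells *Col11a1* was at 0, 0 and 0 CPM with GC, and no gene of any kind was called. By edgeR 0 of 19 chains was called, against 0% of all genes, with 0 chains and 237 genes at an unadjusted p under 0.05, and DESeq2 called 0. The medians were −0.01 for chains and 0.02 for all genes. For the difference of the GC effects between parental and GR KO cells, 0 of 19 chains was called by edgeR or DESeq2, against 0.295% of all genes, with 3 chains at an unadjusted p under 0.05. The medians there were 0.14 and −0.03. *Col11a1* held 2 counts in 1 of the 6 GR KO cultures and 0 in the others, so its GC response could not be compared between genotypes.

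The effect of GR KO in control tumors minus that in cells with DMSO asks whether the genotype gap is the same in both settings. Of the 11 chains lower in GR KO cells, 8 had a gap that was narrower in tumors by the test. *Col1a1* was at −4.30 ± 0.45 between genotypes in cells and −0.11 ± 0.17 in tumors, a difference of 4.20 ± 0.39 (adjusted p = 4.17e-09) on the log2 scale. *Col6a2* was at −3.26 ± 0.27 in cells and −0.08 ± 0.21 in tumors, a difference of 3.18 ± 0.33 (adjusted p = 5.35e-08). *Col5a2* was the 1 called chain with a negative difference, at 0.75 ± 0.35 in cells and −0.96 ± 0.21 in tumors, a difference of −1.71 ± 0.39 (adjusted p = 0.00635). Of 35 chains 10 were called, 9 positive and 1 negative, against 5.11% of all genes, with medians of 1.52 for chains and 0.00 for all genes. A chain could enter this count and median through tumors alone, as *Col27a1* did. In cultures by themselves 19 chains passed the filter. The positive chains were *Col1a1*, *Col6a2*, *Col6a3*, *Col6a1*, *Col5a1*, *Col5a3*, *Col18a1*, *Col12a1* and *Col27a1*, the last with no fold because it had no read in GR KO cells. The cell type markers *Dcn*, *Notch3*, *Vwf*, *Csf1r* and *Acta1* were also called positive in this comparison by edgeR (adjusted p 7.89e-07 to 0.0439). Their part in the chain values was not tested.

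*Col27a1*, a fibrillar chain of cartilage, measured 23.5, 20.6, 32.3, 29.5 and 21.3 CPM in parental and 10.2, 21.8, 16.5, 29.8 and 13.8 CPM in GR KO control tumors, 0.465, 0.690 and 1.20 CPM in parental cells and 0 in GR KO cells with DMSO, so that GR KO tumors were at least 117-fold higher than GR KO cells. *Col6a3* lost its call without any 1 of 10 libraries, namely parental control tumors 1, 2 and 4, GR KO control tumors 3 and 4, parental cultures 1 and 3 and each GR KO culture with DMSO (2.57 to 3.83, adjusted p 0.0526 to 0.133). *Col5a1* lost it without parental control tumor 2, 4 or 5, GR KO control tumor 2, or culture 1 or 2 with DMSO of either genotype (0.73 to 0.83, adjusted p 0.0521 to 0.122) or a filter (0.81, adjusted p = 0.0861), and *Col12a1* without GR KO culture 1 (1.22, adjusted p = 0.0765). Without the tumors above 5% *Gm26924* the calls were *Col6a3*, *Col27a1*, *Col6a2*, *Col5a3* and *Col1a1*, and those lost were *Col5a2* at −1.59, *Col6a1* at 1.10, *Col18a1* at 0.88, *Col12a1* at 1.38 and *Col5a1* at 0.97 (adjusted p 0.0683 to 0.204). Host cells in both tumor genotypes carried an intact receptor, and how much of each chain's tumor RNA was theirs was not measured.

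Genes that process collagen, act as its receptors or share the basement membrane were counted from lists of 33, 10 and 15 genes. In GR KO tumors with GC, where 6.42% of all genes were called, 2 of 32 biosynthesis genes tested were called, both higher, *Serpinh1*, the collagen chaperone, by 1.80 ± 0.38 (adjusted p = 0.00798) and *Bmp1*, which trims procollagen, by 0.64 ± 0.20 (adjusted p = 0.0497) on the log2 scale. *Serpinh1* measured 11.4, 19.3, 31.4, 40.4 and 17.4 CPM in control and 83.4, 39.2, 120.0, 52.2 and 111 CPM in GC-treated tumors, overlapping ranges in which the highest control passed the lowest GC-treated tumor. Of 9 receptors, 0 was called there by edgeR or DESeq2, with 0 at an unadjusted p under 0.05. In parental tumors with GC, where 0.779% of all genes were called, edgeR called 0 of 32 biosynthesis genes, 0 of 9 receptors and 0 of 15 partners, with 6, 2 and 4 at an unadjusted p under 0.05 and 1, 0 and 1 called by DESeq2. Between control tumors, with 2.25% of all genes called, *P4ha1*, a collagen prolyl hydroxylase subunit, fell in GR KO by 0.77 ± 0.21 (adjusted p = 0.0485), *Lama5* fell by 2.63 ± 0.61 (adjusted p = 0.0289), and *Lamb3*, an epithelial laminin chain, rose by 1.37 ± 0.31 (adjusted p = 0.0269). Between GC-treated tumors, with 0.634% called, *Lamb3* was at 1.41 ± 0.31 (adjusted p = 0.0256) and *Plod1*, a collagen lysyl hydroxylase, at −1.10 ± 0.23 (adjusted p = 0.0201). Of these genes, *Plod1* between GC-treated tumors was called without the tumors above 5% *Gm26924* (−1.15, adjusted p = 0.0292), and *Serpinh1* at 1.24, *Bmp1* at 0.80, *P4ha1* at −0.56, *Lama5* at −2.73 and *Lamb3* at 1.26 between control and 1.42 between GC-treated tumors were not (adjusted p 0.0507 to 0.935). Genes of these lists were not refitted with single libraries left out.

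In culture *Lox*, the enzyme that crosslinks collagen, rose in parental cells with GC. It measured 354, 407 and 338 CPM with DMSO and 956 and 1131 CPM with GC, without overlap, and 698, 678 and 794 CPM and 679.5, 801 and 906 CPM in GR KO cells. The change was 1.50 ± 0.16 (adjusted p = 0.000712) in parental cells, where 0.878% of all genes were called, and the parental minus GR KO difference was 1.33 ± 0.22 (adjusted p = 0.0322) on the log2 scale, where 0.295% were. Of 29 biosynthesis genes 5 were called between GR KO and parental cells with DMSO, against 8.22% of all genes. *Adamts2*, which trims procollagen, fell by 4.85 ± 0.54 (adjusted p = 0.000250), *Leprel2* by 0.97 ± 0.27 (adjusted p = 0.0487) and *Plod1* by 0.84 ± 0.18 (adjusted p = 0.0133), whereas *Lox* rose by 0.97 ± 0.15 (adjusted p = 0.00193) and *Loxl2* by 0.61 ± 0.13 (adjusted p = 0.0126). Of 12 partners *Lama4* fell by 1.97 ± 0.44 (adjusted p = 0.0166) and *Agrn* by 0.62 ± 0.15 (adjusted p = 0.0270), and 0 of 7 receptors was called, with 1 at an unadjusted p under 0.05 and 0 by DESeq2. Of the marker lists *Dcn*, at a mean of 1.48 CPM in parental and 0 in GR KO cells, and *Notch3*, at 0.880 CPM and at most 1 count per GR KO culture, were called lower (adjusted p = 0.00746 and 0.0388), and *Mitf* fell by 1.36 ± 0.23 (adjusted p = 0.00380).

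Cell type markers moved with the same conditions, and their part in the chain values was not tested. With GC in GR KO tumors 3 of 8 fibroblast markers were called, against 6.42% of all genes, *Pdgfra* at 1.17 ± 0.32 (adjusted p = 0.0320), *Clec3b* at −1.51 ± 0.30 (adjusted p = 0.00575) and *Pi16* at −1.23 ± 0.23 (adjusted p = 0.00401). *Kdr*, the endothelial VEGF receptor, fell by 1.32 ± 0.26 (adjusted p = 0.00567), *Krt14* fell by 1.42 ± 0.39 (adjusted p = 0.0302), and the suprabasal keratins *Krt1* and *Krt10* rose by 1.85 ± 0.32 (adjusted p = 0.00234) and 2.13 ± 0.49 (adjusted p = 0.0136). *Myh4*, of skeletal muscle, fell by 1.33 ± 0.35 (adjusted p = 0.0268). In parental tumors with GC, with 0.779% of all genes called, *Krt15* rose by 1.45 ± 0.28 (adjusted p = 0.00859), and 0 of 8 fibroblast and 0 of 8 endothelial markers were called by edgeR, with 3 and 3 at an unadjusted p under 0.05 and 0 and 1 called by DESeq2. The parental minus GR KO difference of the GC effect was called for *Clec3b* at 2.08 ± 0.42 (adjusted p = 0.0375), with 0.195% of all genes. Between control tumors, with 2.25% called, GR KO had higher *Kdr* by 0.98 ± 0.26 (adjusted p = 0.0472) and *Acta2* by 0.87 ± 0.20 (adjusted p = 0.0288), and *Krt1* at −1.21 ± 0.31 (adjusted p = 0.0422), with 0 of 8 fibroblast markers called by edgeR, 5 at an unadjusted p under 0.05 and 1 by DESeq2. When the tumors above 5% *Gm26924* were left out, *Krt15* with GC in parental tumors (1.46, adjusted p = 0.0147) and *Clec3b* with GC in GR KO tumors (−2.06, adjusted p = 0.0469) were called, and the other markers named here for tumors, including the difference for *Clec3b*, were not (adjusted p 0.103 to 1). The changes with GC in GR KO tumors were then 0.60 for *Pdgfra*, −1.22 for *Pi16*, −1.20 for *Kdr*, −0.28 for *Krt14*, 1.36 for *Krt1*, 0.76 for *Krt10* and −1.77 for *Myh4*, the difference for *Clec3b* was 2.67, and those between control tumors were 0.95 for *Kdr*, 0.80 for *Acta2* and −0.59 for *Krt1*.

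Across the 20 tumors, deviations from the group mean of 34 chains were set against summed fibroblast, endothelial, pericyte and keratinocyte markers. Of these 136 relations, permutation tests with 100000 draws left 0 with an adjusted p under 0.05 by Pearson's r or Spearman's rho, and 19 and 21 with an unadjusted p under 0.05. *Col1a2* against fibroblast markers had r = 0.632 (p = 0.00402, adjusted p = 0.240) and rho = 0.592 (p = 0.0107, adjusted p = 0.263), and r = 0.480 without the 2 tumors farthest out. *Col6a2* against the same markers had r = −0.758 (p = 0.00797, adjusted p = 0.240) and rho = −0.777 (p = 0.00155, adjusted p = 0.211), and r = −0.652 without those 2 tumors. By the same tests *Col4a2* had r = −0.621 (p = 0.00389, adjusted p = 0.240) and *Col3a1* r = 0.703 (p = 0.012, adjusted p = 0.240). Without those 2 tumors they had r = −0.404 and r = 0.468. The pericyte and smooth muscle sum was dominated by *Acta2*, which the cultured cells also held. By the same tests *Col4a2* had r = 0.626 (p = 0.00714, adjusted p = 0.240) and rho = 0.645 with this sum. Without the 2 tumors farthest out for this sum, r was 0.541. The median r was 0.0581 for chains and 0.0924 for all genes with fibroblast markers, 0.0159 and 0.0453 with endothelial, −0.114 and −0.0492 with pericyte, and −0.0552 and −0.0567 with keratinocyte markers. After removal of the number of genes detected, chosen after seeing the data, r with fibroblast markers was 0.227 for *Col1a2* and −0.612 for *Col6a2*. It was then −0.169 for *Col4a2* and 0.427 for *Col3a1*. For *Col4a2* with the pericyte and smooth muscle sum, r was then 0.390. The number of genes detected itself went with the fibroblast sum at r = 0.659 and with chains at r = −0.836 for *Col4a2* to r = 0.804 for *Col1a2*. Among the other chains called for GC in GR KO tumors r was 0.738 for *Col3a1*, 0.666 for *Col1a1*, 0.496 for *Col5a2* and −0.233 for *Col6a1*, and these values were not tested.

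Several chains lie beside one another in the genome (GRCm38). *Col3a1* and *Col5a2*, which were both called for GC in GR KO tumors and between control tumors, lie tail to tail on chromosome 1 with 24.6 kb between them. *Col6a2* and *Col6a1* lie in the same direction on chromosome 10 with 85.2 kb between them, and *Col18a1* follows *Col6a1* after 326 kb with 1 coding gene between. *Col4a1* and *Col4a2* lie head to head on chromosome 8 and overlap by 22 bases at their 5′ ends. *Col4a6* and *Col4a5* on chromosome X and *Col4a4* and *Col4a3* on chromosome 1 are also head to head, with 1308 and 71 bases between them. *Col4a1* was called with GC in parental tumors and *Col4a2* was not, and the difference between the pair was not tested. *Col10a1* spans chr10:34389981-34397085 on the plus strand.

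A table of promoters from RefSeq (GRCm38.p6), 300 bases each, 250 before and 50 after the start, held 35 of 44 chains with 38 promoters. The table did not list *Col12a1*, *Col14a1*, *Col1a1*, *Col22a1*, *Col26a1*, *Col2a1*, *Col4a3*, *Col5a2* and *Col9a3*. Both strands were searched. The GR hexamer AGAACA was in 5.26% of chain promoters (*Col20a1* and *Col9a1*) and 19.0% of 32851 promoters in all, and the full site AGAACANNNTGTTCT, which contains it, in 0 of 38 and 0.00913%. CCAAT was in 34.2% and 37.4%, TATAAA in 13.2% and 13.6%, and CAGAC, the core of the SMAD site, in 52.6% and 49.6%. A match is a description of letters and not a site of binding.

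Of these promoters, 4 are shown for the chains that the tumor results turn on. *Col4a1* and *Col4a2* share their promoter region, and capitals mark the 78 bases, chr8:11312777-11312854, that both windows hold, each read on its own strand. *Col10a1* had the largest called GC change in parental tumors, with its TATA box in capitals, and *Col1a2* the largest in GR KO tumors, with its CCAAT boxes on either strand in capitals. Each run is written 5′ to 3′ along the gene.
*Col4a1*, chr8:11312777-11313076, minus strand: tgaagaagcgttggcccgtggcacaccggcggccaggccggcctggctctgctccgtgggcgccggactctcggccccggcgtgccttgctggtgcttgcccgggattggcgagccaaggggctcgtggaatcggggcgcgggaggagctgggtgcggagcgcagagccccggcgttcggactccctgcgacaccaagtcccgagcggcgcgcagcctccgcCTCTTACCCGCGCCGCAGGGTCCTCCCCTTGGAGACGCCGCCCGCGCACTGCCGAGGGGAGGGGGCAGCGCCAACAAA
*Col4a2*, chr8:11312555-11312854, plus strand: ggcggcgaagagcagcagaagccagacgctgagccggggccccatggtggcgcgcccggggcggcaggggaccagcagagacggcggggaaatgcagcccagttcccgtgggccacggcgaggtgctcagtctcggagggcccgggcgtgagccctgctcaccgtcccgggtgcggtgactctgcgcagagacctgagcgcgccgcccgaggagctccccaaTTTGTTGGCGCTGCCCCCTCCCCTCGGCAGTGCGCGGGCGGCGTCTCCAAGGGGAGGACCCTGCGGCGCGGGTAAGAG
*Col10a1*, chr10:34389731-34390030, plus strand: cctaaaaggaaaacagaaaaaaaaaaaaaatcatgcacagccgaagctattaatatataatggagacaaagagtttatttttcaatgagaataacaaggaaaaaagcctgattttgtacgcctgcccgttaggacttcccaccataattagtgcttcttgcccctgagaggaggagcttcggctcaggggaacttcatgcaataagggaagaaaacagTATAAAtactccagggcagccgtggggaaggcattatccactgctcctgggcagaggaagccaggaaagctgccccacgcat
*Col1a2*, chr6:4505368-4505667, plus strand: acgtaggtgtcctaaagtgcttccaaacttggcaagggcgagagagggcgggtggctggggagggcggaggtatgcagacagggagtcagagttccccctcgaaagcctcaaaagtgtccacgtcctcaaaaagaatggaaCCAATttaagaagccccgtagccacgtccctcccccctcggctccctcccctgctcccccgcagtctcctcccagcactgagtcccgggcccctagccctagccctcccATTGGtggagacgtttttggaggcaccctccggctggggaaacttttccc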

How the data were processed

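RNA of 20 tumors and 11 cultures was measured by QuantSeq 3′ sequencing, and the authors deposited raw counts per gene, made by featureCounts from STAR alignments of Trim Galore reads (Ensembl GRCm38.75). The members and gene lists were chosen with earlier results of these data known. Each experiment was fitted over all genes with edgeR 4.0.16 (quasi-likelihood, TMM, limma 3.58.1, R 4.3.3), keeping genes of at least 0.5 CPM in 3 samples, with Benjamini-Hochberg adjustment over all genes tested in each of 12 comparisons. DESeq2 1.42.0, its size factors, no filter, a replicate block, a pseudocount of 0.1 and each library left out were the alternatives. Values were given for the 6 most abundant chains in tumors and 4 in cultures, every chain called in a comparison other than tumors against cells, there the 3 chains at each end of the differences among chains tested in both experiments, and partner chains of one trimer type. Groups followed the labels. Permutations used scipy 1.17.1, and the fit was tested on simulated data.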

Additional observations from a re-analysis of the deposited data

Results flagged for a closer look

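Among 88 groups of 5 tumors examined, 2 held a tumor far from its group, and chance alone marks about 1 in 20 such groups. *Col5a2* measured 90.5 CPM in GR KO control tumor 1, against 158 to 185 CPM in the other 4 tumors of that group. *Col6a3* measured 1149 CPM in GR KO control tumor 4, against 182 to 365 CPM in the others. Tumor 4 also had the lowest share of *Gm26924* in its group (0.248%) and the most genes detected (16563), while tumor 1 had the fewest genes detected (13268). The part of these measures in the chain values was not tested.

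The GC effect on *Col10a1* differed between parental and GR KO tumors by −3.75 on the log2 scale (edgeR, adjusted p = 0.0330). The effect of GR KO differed between control tumors and cells with DMSO for 10 chains, of which 9 were positive. *Col1a1* differed by 4.20 (adjusted p = 4.17e-09) and *Col6a3* by 3.38 (adjusted p = 0.0455). The type VI chains *Col6a2* and *Col6a1* differed by 3.18 (adjusted p = 5.35e-08) and 1.42 (adjusted p = 0.00334). The type V chains *Col5a3* and *Col5a1* differed by 2.15 (adjusted p = 8.42e-06) and 0.80 (adjusted p = 0.0294). *Col18a1* differed by 1.59 (adjusted p = 0.000778) and *Col12a1* by 1.39 (adjusted p = 0.0162). *Col5a2* differed the other way, by −1.71 (adjusted p = 0.00635). *Col27a1* was fitted at 6.46 (adjusted p = 0.000128), but it had no read in GR KO cells with DMSO, so the size of its difference was not measured.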

How the results depend on the processing

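Of 47 named changes with 681 values under the alternatives, 565 kept their direction and side of the threshold, 115 kept their direction but not the call, 1 was called only under an alternative, and 0 reversed. All 76 permutation p-values kept their side with the other pseudocount. Leaving out tumors above 5% *Gm26924*, chosen after seeing the data, gave 1 chain called for GC in parental tumors, 0 for GC in GR KO tumors, 0 for their difference, 0 between control tumors and 5 for GR KO in tumors minus cells. This leaves 1 GR KO control tumor. Genes detected as a covariate, chosen likewise, gave 2, 0, 2 and 2 chains for GC in GR KO tumors, the difference of GC effects, control tumors and GC-treated tumors. No filter gave 3 for GC in GR KO tumors. DESeq2 gave 3 for the difference of GC effects and 2 between GC-treated tumors, and the replicate block gave 2 for that difference and 0 for GC in parental cells. Leaving out 1 library gave 0 to 2 chains for GC in parental tumors, 3 to 7 for GC in GR KO tumors, 0 to 4 for their difference, 2 to 9 between control tumors, 0 to 1 between GC-treated tumors and 0 to 1 for GC in parental cells. The cause of these differences was not tested. Pairs of samples with one replicate number had a mean r of 0.0235 over 30 tumor pairs (−0.387 to 0.237, 6 of 20 best with their own number) and 0.0110 over 15 culture pairs (−0.318 to 0.390, 3 of 11), against −0.00400 and −0.00605 for other pairs. Depth sets a floor of 0.108 to 0.216 CPM, under which 0 cannot be told from a low level.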
